A study of Homo sapiens with 4 samples.

Results

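The genes described here are the rows named ZNF, digits and at most 1 letter that lie on a human autosome other than 19. Of 25680 rows in each deposited table, 527 carry such a name. The annotation placed 262 of these on 19 autosomes other than chromosome 19, 252 on chromosome 19 and 13 on the sex chromosomes. Chromosome 7 held 38 of the 262 genes and chromosome 16 held 31. The annotation lists 13 of the 262 as other than protein-coding, and these are called pseudogenes here.

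RNA-seq was made from THP-1, an established line from a human monocytic leukaemia. One group received a lentivirus with a short hairpin RNA (shRNA) against PIWIL4 (PGP-shPIWIL4; shPIWIL4, n = 2 libraries) and the other a lentivirus with a scrambled shRNA (PGP-Scrambled; Scrambled, n = 2 libraries). Cells of both groups were sorted 48 h after transduction. In both groups the sample titles mark the libraries as "exp. rep1" and "exp. rep2". That wording does not settle whether they were separate cultures or repeat libraries of 1 culture. The variation behind each p-value is that from library to library, which may be technical. No second shRNA or PIWIL4 rescue was among the samples.

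Most zinc finger proteins of this naming series bind DNA through tandem C2H2 fingers, in each of which a pair of cysteines and a pair of histidines hold a zinc ion. Many also carry a Krüppel-associated box (KRAB). The KRAB domain recruits TRIM28 (KAP1), which brings the H3K9 methyltransferase SETDB1 and HP1 proteins to the bound DNA, and many targets of KRAB proteins lie in transposable elements. The largest clusters of KRAB genes lie on chromosome 19. The genes on the other autosomes form smaller clusters and include many members without KRAB that act as activators, corepressor partners or RNA-linked factors.

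Total counts were 50689304 and 53657246 in shPIWIL4 libraries 1 and 2, and 31458079 and 51655687 in Scrambled libraries 1 and 2. Scrambled library 1 was the shallowest. PIWIL4, the targeted gene, was at 17.8 and 17.4 CPM (counts scaled to library size) in the shPIWIL4 libraries, against 38.5 and 37.2 CPM in the Scrambled libraries. Its log2 fold change was -1.10 (SE 0.09, adjusted p 1.3e-05). Of 10 monocytic leukaemia markers, 9 were at 1 CPM or more in every library. CD86 was at 0.750 and 0.924 CPM in shPIWIL4 and at 5.89 and 5.63 CPM in Scrambled. The T cell markers CD3E and CD2 were at 0 in all 4 libraries. The 10 monocytic markers summed to 2310 and 2320 CPM in shPIWIL4 and to 768 and 763 CPM in Scrambled, of which LYZ, the lysozyme gene, made up 1800 and 1820 CPM in shPIWIL4 and 143 and 151 CPM in Scrambled. The part of these shifts in the results below was not tested.

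Promoter windows are shown for 4 genes on which the results turn. ZNF367 had the largest rise, ZNF595 had the second largest fall among genes at 1 CPM or more, and ZNF24 and ZNF397 belong to a chromosome 18 cluster in which every gene tested fell. Each window runs 5′ to 3′ from 250 bases before to 50 bases after the gene's start and was taken from RefSeq on GRCh38.p14. Capitals mark matches to an ETS motif (CCGGAAG, on either strand).
ZNF367, chr9:96418321-96418620, minus strand: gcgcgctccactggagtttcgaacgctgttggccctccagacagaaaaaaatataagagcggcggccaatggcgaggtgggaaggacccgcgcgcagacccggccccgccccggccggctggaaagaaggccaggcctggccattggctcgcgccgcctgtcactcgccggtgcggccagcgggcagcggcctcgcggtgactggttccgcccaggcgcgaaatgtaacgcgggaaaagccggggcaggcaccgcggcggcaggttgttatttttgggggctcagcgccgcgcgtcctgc
ZNF595, chr4:53071-53370, plus strand: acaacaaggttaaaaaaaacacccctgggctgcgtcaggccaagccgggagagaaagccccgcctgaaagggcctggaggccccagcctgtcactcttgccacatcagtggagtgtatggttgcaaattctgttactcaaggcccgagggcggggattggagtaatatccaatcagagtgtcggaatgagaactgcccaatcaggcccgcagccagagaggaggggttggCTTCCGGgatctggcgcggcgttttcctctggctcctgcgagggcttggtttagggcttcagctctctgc
ZNF24, chr18:35344371-35344670, minus strand: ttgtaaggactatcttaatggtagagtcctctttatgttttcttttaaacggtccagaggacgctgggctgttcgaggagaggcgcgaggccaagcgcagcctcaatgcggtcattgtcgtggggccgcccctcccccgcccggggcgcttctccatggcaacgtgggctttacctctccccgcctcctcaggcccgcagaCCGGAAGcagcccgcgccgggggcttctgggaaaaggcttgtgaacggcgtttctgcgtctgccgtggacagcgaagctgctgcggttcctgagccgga
ZNF397, chr18:35240784-35241083, plus strand: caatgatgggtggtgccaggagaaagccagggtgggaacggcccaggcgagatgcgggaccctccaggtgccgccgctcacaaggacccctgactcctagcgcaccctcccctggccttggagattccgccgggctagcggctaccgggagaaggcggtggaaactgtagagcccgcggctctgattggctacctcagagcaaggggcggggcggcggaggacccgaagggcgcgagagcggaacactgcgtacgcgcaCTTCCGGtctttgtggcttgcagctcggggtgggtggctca

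The ZNF595, ZNF24 and ZNF397 windows each held 1 match to the ETS letters, on the minus, plus and minus strand of the gene, and the ZNF367 window held none. The 4 windows were 69.0%, 58.0%, 62.3% and 67.3% G or C, in the order printed. Promoter windows in the table matched 203 of the 262 genes, with 269 windows. The ETS letters were found in 82 of these, or 30.5%, against 10.3% of all 35116 windows in the table. Windows of chromosome 19 zinc finger genes held them in 39.5% of 261, so the share is not particular to the genes described here. These letters contain a CG pair. The median count of CG pairs per window was 23 for these genes, 20 for the chromosome 19 genes and 14 over all windows, and its part in the shares was not tested. By call, the ETS letters were in 27.1% of the 48 windows of genes that rose, 30.8% of the 78 windows of genes that fell and 36.7% of the 120 windows of genes tested and not called. A YY1 motif (ATGGCGG, both strands), which also contains a CG pair, was in 6.25%, 14.1% and 7.50% of these windows in the same order. These shares rest on 3, 11 and 9 windows, and a gene can have more than 1 window. The motif was in 7.66% of the windows of chromosome 19 zinc finger genes and in 5.55% of all windows. An E-box (CACGTG) was in 5.95% of the 269 windows and an AP-1 motif (TGANTCA, both strands) in 4.46%, against 7.26% and 7.71% of all windows. None of the 4 motifs contains another. A match describes letters in a window and does not show a bound site.

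Of the 262 genes, 229 had enough counts to be tested, and 33 did not. Among those 33, 9 had no count in any library and 24 had between 1 and 29 counts in all. Untested genes included ZNF423, ZNF462, ZNF827, ZNF366, ZNF365 and ZNF750. Levels per length were compared as RPKM, which is CPM divided by gene length in kilobases, averaged over the 4 libraries. They ranged from 0.0147 to 119 RPKM with a median of 4.73 RPKM, and 56 genes were at 10 RPKM or more, 139 between 1 and 10, and 34 below 1.

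The 6 genes with the highest RPKM levels were ZNF207, ZNF217, ZNF768, ZNF318, ZNF692 and ZNF22. ZNF207 encodes BuGZ, which binds BUB3 and helps chromosomes align on the spindle. It was at 297 and 334 CPM in the shPIWIL4 libraries, against 244 and 234 CPM in the Scrambled libraries. Both shPIWIL4 libraries lay above both Scrambled libraries, with a log2 fold change of 0.40 (SE 0.09, adjusted p 4.4e-03). ZNF217, a partner of the CoREST and CtBP corepressors, was at 208 and 217 CPM in shPIWIL4 and at 226 and 236 CPM in Scrambled. Its log2 fold change of -0.12 (SE 0.08) was not called (adjusted p 0.24). ZNF692 rose by 0.31 (SE 0.08, adjusted p 8.9e-03), a call lost without Scrambled library 1 (0.32), without Scrambled library 2 (0.33) and with upper-quartile factors (0.19). ZNF768, ZNF318 and ZNF22 had log2 fold changes of -0.04, -0.22 and -0.06 and were not called. ZNF318 was called lower with upper-quartile factors (-0.34), with library totals (-0.27) and without shPIWIL4 library 2 (-0.34), and ZNF217 was called lower with upper-quartile factors (-0.24).

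The comparison of shPIWIL4 with Scrambled asks how expression differs when PIWIL4 is knocked down. Of the 229 tested genes, 118 were called at an adjusted p under 0.05 in edgeR's quasi-likelihood test, 41 higher and 77 lower in shPIWIL4. That is 51.5% of the tested zinc finger genes, where 57.7% of all 16108 genes tested were called. Higher calls made up 17.9% of the zinc finger genes and 28.7% of all genes, and lower calls 33.6% and 29.1%. The share called was therefore below the share over all genes, and the share called lower was near it. Without Scrambled library 1 the calls were 27 higher and 53 lower. With upper-quartile factors, which move the median of all genes to -0.12, 26 were higher and 95 lower.

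Most changes were under 2-fold. The median log2 fold change was -0.09 over the 229 genes and -0.0034 over all genes tested. A change of at least 2-fold was called higher for 1 zinc finger gene and lower for 13, where 4.79% of all genes were called higher and 11.3% lower at that size. Genes called higher had log2 fold changes of 0.23 to 1.42 with a median of 0.46, and genes called lower had -0.26 to -2.56 with a median of -0.63. The groups did not overlap for 171 of the 229 genes, or 74.7%, against 78.6% of all genes, and all 118 called genes were among them. Together the 262 genes took 0.697% and 0.696% of all counts in the shPIWIL4 libraries, against 0.765% and 0.781% in the Scrambled libraries. In bulk RNA, fewer cells that express a gene and less RNA per cell cannot be told apart.

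**Figure D1:**
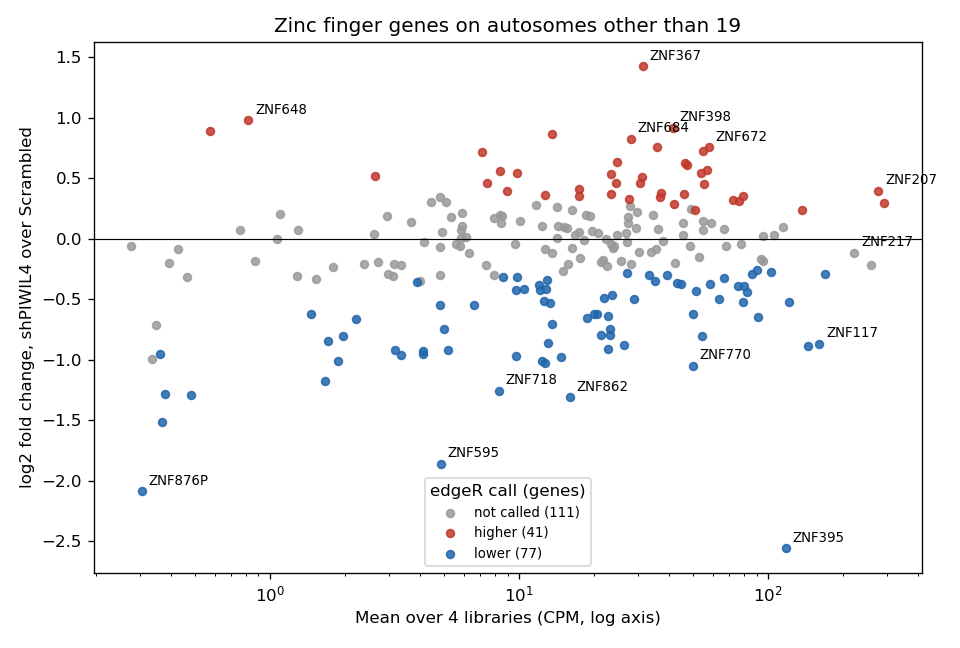
Each point is 1 of the 229 tested zinc finger genes, with its mean over 4 libraries in CPM on a log axis and its log2 fold change, shPIWIL4 over Scrambled. Red marks the 41 genes called higher, blue the 77 called lower and grey the 111 not called, and ZNF395 lies lowest at -2.56.

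The largest rise was in ZNF367, whose product binds GC-rich promoter DNA in erythroid cells. It was at 49.3 and 42.6 CPM in the shPIWIL4 libraries, from 2496 and 2212 counts, against 15.02 and 19.02 CPM in the Scrambled libraries, from 477 and 1004 counts. Both shPIWIL4 libraries lay far above both Scrambled libraries. The means were 45.9 ± 4.7 and 17.0 ± 2.8 CPM (SD, n = 2 each), which is 2.68-fold higher (log2 1.42, SE 0.13, adjusted p 2.1e-05). It was the only gene of the 229 called higher by 2-fold or more in this fit.

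After ZNF648, a gene of low level given below, ZNF398 had the next largest rise among genes at 1 CPM or more. It encodes the ZER6 proteins, which interact with oestrogen receptor alpha. Its level was 51.0 and 57.7 CPM in shPIWIL4 and 30.3 and 27.3 CPM in Scrambled, so the groups stood well apart (log2 0.92, SE 0.10, adjusted p 6.5e-05). ZNF658, which binds zinc-responsive elements in promoters, was at 16.7 and 18.4 CPM in shPIWIL4 and at 9.16 and 9.98 CPM in Scrambled (log2 0.87, SE 0.11). Its pseudogene ZNF658B rose by 0.89 at a level of 0.750 ± 0.056 CPM in shPIWIL4 and 0.404 ± 0.0081 CPM in Scrambled. Reads of this pair may be shared, so both values are uncertain.

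ZNF684, a KRAB gene, was at 36.2 and 35.7 CPM in shPIWIL4 against 19.3 and 21.2 CPM in Scrambled (log2 0.82, SE 0.10). ZNF804A, known as a schizophrenia risk locus, was at 43.4 and 47.1 CPM in shPIWIL4 and at 26.3 and 27.1 CPM in Scrambled (log2 0.76, SE 0.09). ZNF672 was at 75.1 and 70.4 CPM in shPIWIL4 and at 42.9 and 43.3 CPM in Scrambled (log2 0.76, SE 0.08). In each of these genes both shPIWIL4 libraries lay above both Scrambled libraries. ZNF598, the ubiquitin ligase that marks collided ribosomes, spread more, with 80.3 and 55.9 CPM in shPIWIL4 and 37.3 and 45.0 CPM in Scrambled. It rose by 0.72 (SE 0.16, adjusted p 3.7e-03), a call lost when genes with low counts were kept (0.77). ZNF79, the pseudogene ZNF767P, ZNF706 and ZNF75A rose by 0.72, 0.63, 0.62 and 0.61. ZNF648 also came under the naming rule, at 0.868 and 1.29 CPM in shPIWIL4 and at 0.630 and 0.492 CPM in Scrambled. Its rise of 0.98 (SE 0.29, adjusted p 0.016) was lost without shPIWIL4 library 2 (0.67) and without Scrambled library 2 (0.78), and with DESeq2 (0.96).

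The largest fall was in ZNF395, which is known to be induced by hypoxia and to bind the huntingtin gene's promoter. Its level was 35.03 and 33.4 CPM in the shPIWIL4 libraries, from 1775 and 1735 counts, against 202 and 202 CPM in the Scrambled libraries, from 6409 and 10675 counts. Replicates were nearly identical within each group. The means were 34.2 ± 1.2 and 202 ± 0.32 CPM (SD, n = 2 each), which is 5.90-fold lower (log2 -2.56, SE 0.08, adjusted p 1.2e-07). ZNF395 shares an exon with FBXO16 on the same strand in the annotation used here.

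ZNF595 and ZNF718, KRAB genes near the end of the short arm of chromosome 4, fell as well. ZNF595 was at 2.01 and 2.16 CPM in shPIWIL4 against 8.47 and 6.84 CPM in Scrambled (log2 -1.86, SE 0.16, adjusted p 1.4e-05). ZNF718 was at 4.86 and 4.93 CPM in shPIWIL4 against 12.4 and 11.1 CPM in Scrambled (log2 -1.26, SE 0.12). The genes resemble each other, so reads may be split between them. ZNF862 is a member with a KRAB match and no C2H2 match. It was at 8.90 and 9.53 CPM in shPIWIL4 and at 22.4 and 23.3 CPM in Scrambled (log2 -1.31, SE 0.10, adjusted p 9.3e-06). ZNF770 was at 33.8 and 31.2 CPM in shPIWIL4 and at 61.9 and 72.4 CPM in Scrambled (log2 -1.05, SE 0.10).

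In each of these genes the groups stood apart by more than their spread. ZNF300, ZNF662, ZNF436 and ZNF425, all with a KRAB match, fell by 1.18, 1.03, 1.01 and 1.01. ZNF852, ZNF720 and ZNF385C fell by 0.98, 0.97 and 0.96. ZNF662, ZNF436 and ZNF385C share exons with other annotated genes (KRBOX1, ZNF436-AS1 and NKIRAS2). Below 1 CPM, ZNF876P, ZNF501, ZNF488 and ZNF26 were also called lower, with log2 fold changes of -2.09, -1.52, -1.29 and -1.28 at means of 0.117, 0.194, 0.293 and 0.214 CPM in shPIWIL4 and 0.495, 0.542, 0.675 and 0.548 CPM in Scrambled.

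**Figure D2:**
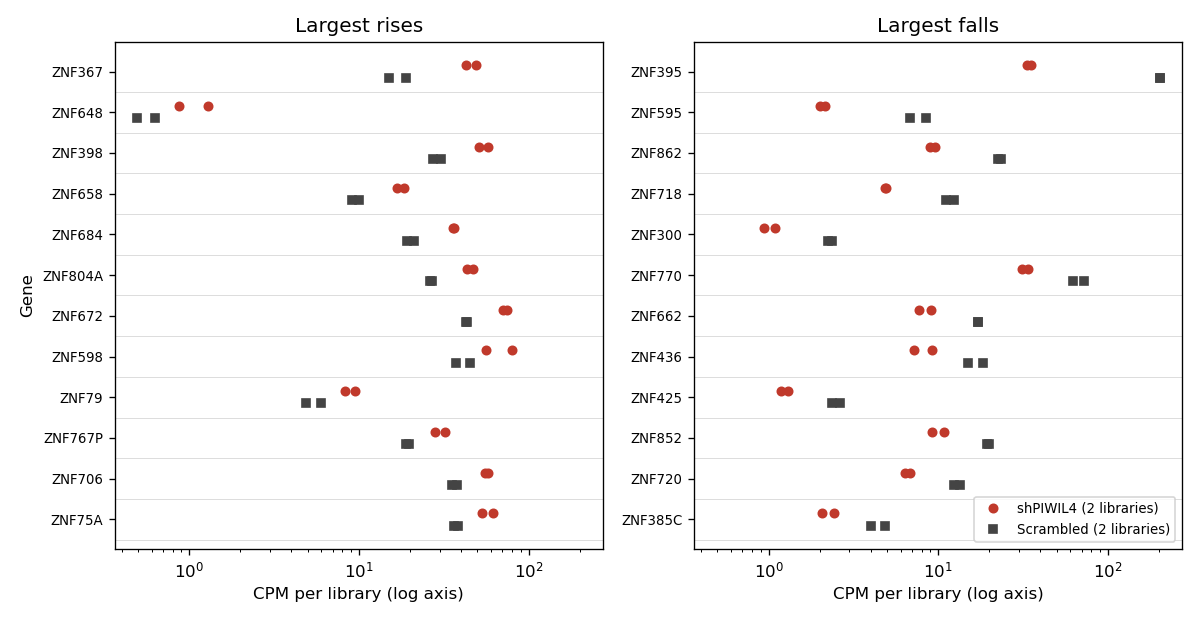
Points give the CPM of each library on a log axis for the 12 largest rises (left) and 12 largest falls (right) under the naming rule, circles for shPIWIL4 and squares for Scrambled (2 libraries each). In none of the 24 genes do the groups overlap, as the naming rule requires, and ZNF395 shows the widest gap.

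Of 13 tested genes on a fixed list titled promoter-binding activators, 3 rose and 3 fell. Each direction holds 23.1% of the list, near the 28.7% of all genes called higher and 29.1% called lower. The title does not hold for every gene on the list, ZNF652 among them, so the counts are no measure of activation. Over the list the median was 0.07, or -0.05 with upper-quartile factors. ZNF410, which activates CHD4 in erythroid cells, was at 61.9 and 73.4 CPM in shPIWIL4 and at 47.9 and 43.6 CPM in Scrambled (log2 0.57, SE 0.10, adjusted p 1.3e-03). ZNF652 and ZNF407 rose by 0.29 and 0.41, and ZNF407 was not called without Scrambled library 2 (0.36). ZNF362, the paralog of ZNF384, fell by 0.62 (SE 0.12), and ZNF300 fell as given above. ZNF281, a regulator of pluripotency genes in mouse stem cells, fell by 0.30, a call lost without Scrambled library 1 (-0.30) and without Scrambled library 2 (-0.27). ZNF143, which binds promoters of small nuclear RNA genes and many others, was at 17.9 and 18.6 CPM in shPIWIL4 and at 18.4 and 18.3 CPM in Scrambled, with a log2 fold change of -0.01 (SE 0.10). ZNF384, a fusion partner in acute leukaemia, and ZNF76, the paralog of ZNF143, were not called (0.03 and 0.07).

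Of 17 tested genes for corepressor and chromatin complex members, 6 rose and 8 fell. The median was -0.12. The counts are 35.3% and 47.1% of the list, where 28.7% of all genes were called higher and 29.1% lower. With upper-quartile factors 2 rose and 9 fell. Without Scrambled library 1, 3 rose and 4 fell, and without Scrambled library 2, 5 fell. ZNF746 encodes PARIS, a repressor of PGC-1alpha. It averaged 27.8 ± 3.1 CPM in shPIWIL4 and 19.2 ± 0.083 CPM in Scrambled (SD, n = 2 each; log2 0.54, SE 0.11). ZNF131, a zinc finger protein with a BTB domain, rose by 0.45 (SE 0.09). Among the partners of the reader protein ZMYND8, ZNF687 and ZNF592 rose by 0.36 and 0.23 and ZNF532 fell by 0.49. ZNF512B fell by 0.65 (SE 0.13), with 80.2 and 61.9 CPM in shPIWIL4 and 102 and 120 CPM in Scrambled. ZNF518B, which binds the H3K9 methyltransferase G9a, and its paralog ZNF518A fell by 0.47 and 0.44, while ZNF644, another G9a partner, rose by 0.23.

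Among blood cell and developmental regulators, 7 of 11 genes on the list were tested, of which 2 rose and 3 fell, with a median of -0.21. These are 28.6% and 42.9% of those tested, against 28.7% and 29.1% of all genes. ZNF385A, first described as a haematopoietic zinc finger that binds RNA and p53, was at 43.4 and 36.0 CPM in shPIWIL4 and at 66.7 and 72.1 CPM in Scrambled. Both shPIWIL4 libraries were lower (log2 -0.81, SE 0.11, adjusted p 1.8e-04). ZNF521, a factor of early haematopoietic progenitors, was at 55.7 and 62.5 CPM in shPIWIL4 and at 77.3 and 71.1 CPM in Scrambled (log2 -0.33, SE 0.09, adjusted p 0.013). This call was lost without Scrambled library 1 (-0.24), and without that library 1 gene of the list fell. ZNF469, mutated in brittle cornea syndrome, rose by 0.54 (SE 0.13), and ZNF804A, given above, also rose. ZNF281, on this list too, is the other gene that fell.

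Of 12 tested genes linked to RNA, ribosomes and ubiquitin, 5 rose and 2 fell, or 41.7% and 16.7%, against 28.7% and 29.1% of all genes. The median was 0.20. With upper-quartile factors 4 rose and 3 fell, with a median of 0.08, and 1 fell without Scrambled library 1 or without shPIWIL4 library 1. ZNF622, whose yeast relative takes part in maturation of the large ribosomal subunit, was at 35.03 and 38.0 CPM in shPIWIL4 and at 26.2 and 25.1 CPM in Scrambled (log2 0.51, SE 0.09). ZNF706, with a single finger match, was at 55.1 and 57.7 CPM in shPIWIL4 and at 37.8 and 35.4 CPM in Scrambled (log2 0.62, SE 0.09). ZNF598 and ZNF207, described above, and ZNF106 (0.29) also rose. ZNF277, which binds the ribosomal protein uS5, fell by 0.71 (SE 0.10). ZNF638, which recruits the silencing complex HUSH to unintegrated retroviral DNA, fell by 0.29 (SE 0.10, adjusted p 0.033).

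The SCAN domain is one through which such proteins pair with each other. Of 16 tested members that carry it, 0 rose and 5 fell by edgeR. The 31.2% that fell is near the 29.1% of all genes called lower, and 28.7% of all genes were called higher. Without shPIWIL4 library 1 or without shPIWIL4 library 2, 1 rose. Over the 16, the median was 0.05, or -0.07 with upper-quartile factors. At an unadjusted p under 0.05, 0 were higher and 6 lower, and DESeq2 called 0 higher and 5 lower. The 11 others were not called, and their log2 fold changes lay between -0.35 (ZNF215) and 0.26 (ZNF213). ZNF445, which helps to maintain genomic imprints in mouse and human, was at 62.9 and 67.9 CPM in shPIWIL4 and at 95.4 and 92.3 CPM in Scrambled (log2 -0.52, SE 0.08, adjusted p 5.7e-04). ZNF496 fell by 0.36, a call lost without Scrambled library 2 (-0.30). The remaining 3, ZNF24, ZNF396 and ZNF397, lie together on chromosome 18.

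**Figure D3:**
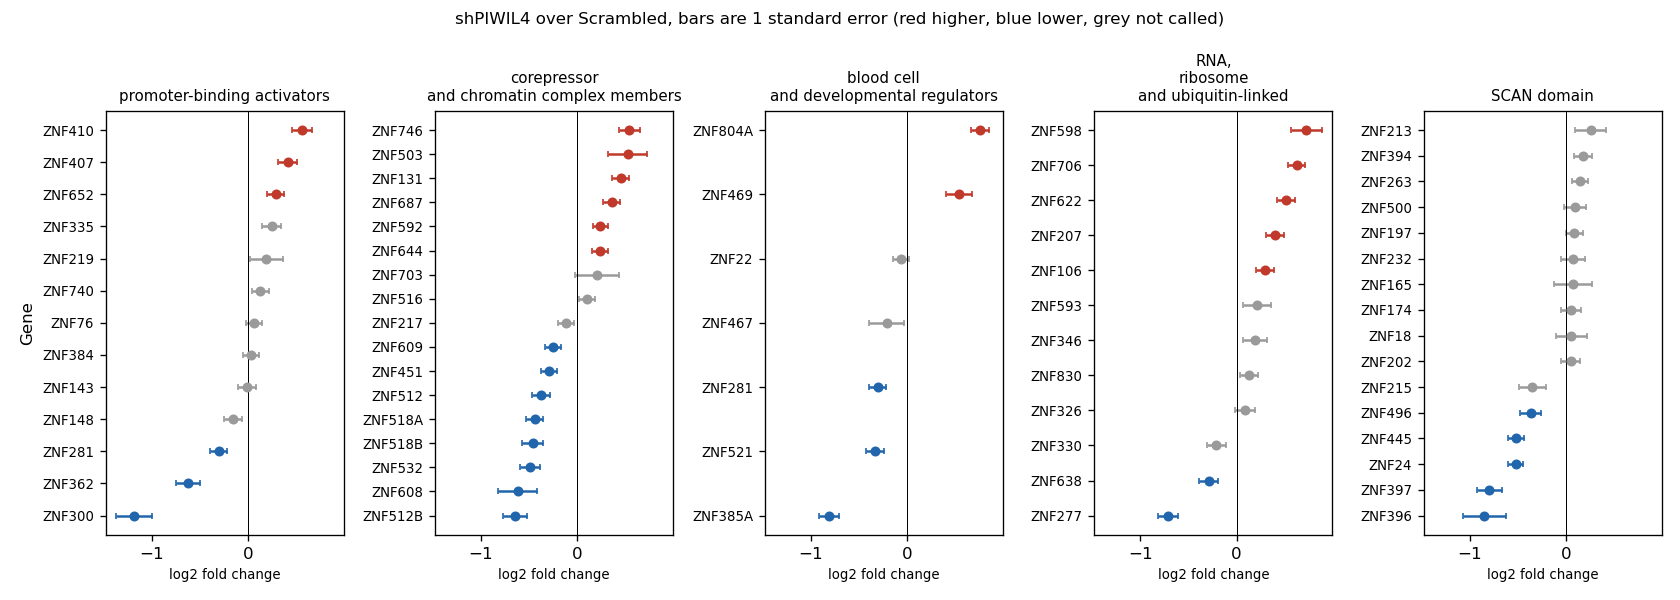
Points give the log2 fold change, shPIWIL4 over Scrambled, of each tested gene of 5 role lists, with bars of 1 SE (n = 2 libraries in each group), red for called higher, blue for called lower and grey for not called. Every list but the SCAN list holds both red and blue genes.

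Neighbouring genes were grouped by their order on the chromosome. Runs of at least 4 genes with at most 5 other genes between neighbours gave 10 clusters. The counts below are of few genes each, beside 28.7% of all genes called higher and 29.1% lower. In the chromosome 18 cluster all 4 genes fell. ZNF24 was at 98.3 and 102 CPM in shPIWIL4 and at 139 and 148 CPM in Scrambled (log2 -0.52, SE 0.08, adjusted p 4.8e-04). ZNF397 was at 13.99 and 17.1 CPM in shPIWIL4 and at 29.5 and 24.7 CPM in Scrambled (log2 -0.80, SE 0.13, adjusted p 6.6e-04). ZNF271 and ZNF396 fell by 0.62 and 0.85. ZNF271 is listed as a pseudogene, ZNF396 was at 1.21 ± 0.28 CPM in shPIWIL4 and 2.21 ± 0.39 CPM in Scrambled, and ZNF397 overlaps exons of ZSCAN30 on the other strand.

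Whole chromosomes 4 and 11, with 7 tested genes each, fall below a planned minimum of 8 and were described after the values were seen. The chromosomes with the most tested genes held calls in both directions. On chromosome 7, 5 of 30 rose and 10 fell, and on chromosome 16, 5 of 29 rose and 7 fell. On chromosome 1, 8 of 19 rose and 4 fell. With upper-quartile factors 3 rose on chromosome 1 and 3 on chromosome 16, and with the replicate number as a block 5 rose on chromosome 1. With the numbers crossed between groups as a block, 11 rose on chromosome 7. Counts on these chromosomes also moved when 1 library was left out. On chromosome 4, 6 of 7 tested genes were lower and 0 higher over the whole chromosome by edgeR. An unadjusted p under 0.05 gave the same counts, and DESeq2 called 5 lower and 0 higher. Without Scrambled library 1, 3 were called lower. Besides ZNF595, ZNF718 and ZNF876P, ZNF141 fell by 0.38, ZNF721 by 0.28 and ZNF518B by 0.47, and ZNF330 was not called (-0.21). In the chromosome 12 cluster 5 of 7 fell by edgeR, while DESeq2 called 1 of the 7 lower. Leaving out 1 library gave 1 lower without Scrambled library 1, 2 without Scrambled library 2, and 3 without shPIWIL4 library 1 or without shPIWIL4 library 2. One of the 5 was ZNF268, at 16.2 and 17.6 CPM in shPIWIL4 and at 30.2 and 28.7 CPM in Scrambled (log2 -0.80, SE 0.10). Its neighbour ZNF605 was at 46.7 and 48.8 CPM in shPIWIL4 and at 47.6 and 51.7 CPM in Scrambled, and was not called (-0.06). In the chromosome 3 cluster 4 of 6 tested genes fell, ZNF852, ZNF660, ZNF501 and ZNF445, while ZNF35 rose by 0.54 and ZNF197 was not called (0.08).

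In the chromosome 4 cluster all 3 tested genes, ZNF141, ZNF721 and the low-level ZNF876P, fell by edgeR, and DESeq2 called 2 lower. The remaining clusters held few calls or calls in both directions. In the chromosome 16 cluster 1 of 6 rose and 3 fell by edgeR, while DESeq2 called 1 lower. In the chromosome 8 cluster 2 of 7 fell. By edgeR 0 of the 4 genes of the chromosome 1 cluster were called, with 0 at an unadjusted p under 0.05 and 0 by DESeq2. One of them, ZNF124, was at 27.4 and 26.4 CPM in shPIWIL4 and at 26.5 and 28.3 CPM in Scrambled (log2 -0.02, SE 0.09). The 4 genes of the chromosome 10 cluster gave 0 on the same 3 counts. In the proximal cluster of chromosome 7, ZNF117 fell by 0.87 (SE 0.08, adjusted p 2.9e-05), at 116 and 111 CPM in shPIWIL4 and 200 and 216 CPM in Scrambled. ZNF117 shares exons with the retroviral envelope gene ERV3-1 on the same strand. Its neighbours ZNF107, ZNF138 and ZNF273 were not called (0.03, 0.07 and -0.23). In the other chromosome 7 cluster, ZNF398 rose while ZNF783 and ZNF425 fell by 0.74 and 1.01. On chromosome 9, ZNF367, ZNF658, ZNF658B and ZNF79 rose and ZNF484, ZNF510 and ZNF169 fell by 0.66, 0.65 and 0.55. On chromosome 11, 0 of 7 tested genes were called by edgeR and 0 by DESeq2, and 1 was lower at an unadjusted p under 0.05. Leaving out 1 library gave 1 lower without Scrambled library 2 or without shPIWIL4 library 2, and 2 lower without shPIWIL4 library 1.

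**Figure D4:**
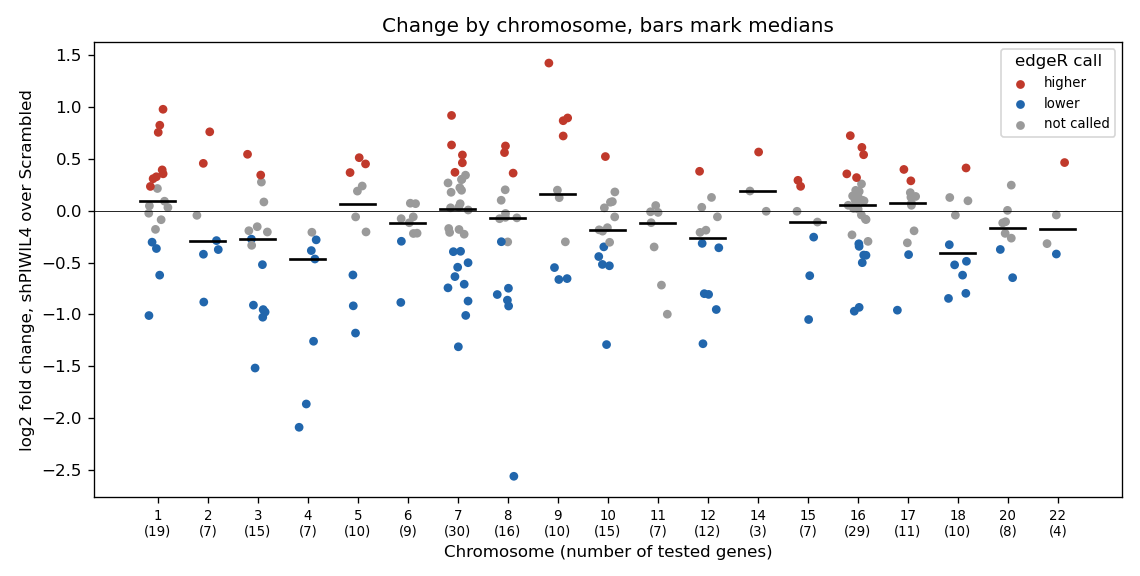
Each point is 1 tested zinc finger gene, placed by chromosome, with its log2 fold change, shPIWIL4 over Scrambled, and bars mark the median of each chromosome. Chromosome 4 has the lowest median, -0.47, and chromosome 14, with 3 genes, the highest, 0.19.

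Counts and medians differed between members with and without a KRAB match. A protein pattern for the KRAB box, widened after the data were seen, matched 104 of 251 members with a translated transcript and 1.98% of all coding genes. Of the 96 tested members that matched, 10 rose and 38 fell, with a median of -0.21. These are 10.4% and 39.6%, where 28.7% of all genes were called higher and 29.1% lower. Without Scrambled library 1, 23 of them fell, and with upper-quartile factors 6 rose. Of the 127 tested members that did not match, 29 rose and 36 fell, or 22.8% and 28.3%, and the median was 0.0068, or -0.12 with upper-quartile factors. Without Scrambled library 1, 19 of these rose. The pattern misses some KRAB genes, so a gene that does not match may still carry the box. Under the narrower pattern the counts were 9 and 35 of 90 matched members, with a median of -0.21, and 30 and 39 of 133 others. The median CPM, which follows gene length as well as level, was 13.4 for matched and 23.5 for other members, and its part in the difference was not tested. By number of fingers, the median was -0.20 for members with 0 to 4, -0.01 for 5 to 10 and -0.20 for over 10.

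Zinc finger genes of chromosome 19 were the set most like these. Of the 229 tested genes on other autosomes 41 rose and 77 fell, against 1 and 171 of 233 tested genes on chromosome 19. These are 17.9% and 33.6% on the other autosomes and 0.429% and 73.4% on chromosome 19, against 28.7% and 29.1% of all genes. The medians were -0.09 and -0.62. The difference between the medians was 0.53 and lay between 0.47 and 0.58 under the alternatives tried. Among genes with a KRAB match, the medians were -0.21 on the other autosomes and -0.70 on chromosome 19. There, 0 of 190 rose and 147, or 77.4%, fell by edgeR. Of those 190, 0 were higher at an unadjusted p under 0.05 and 0 by DESeq2. The median CPM, not scaled by gene length, was 17.7 on the other autosomes and 9.56 on chromosome 19. These counts and medians describe the sets, and no test of the difference between them was made.

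**Figure D5:**
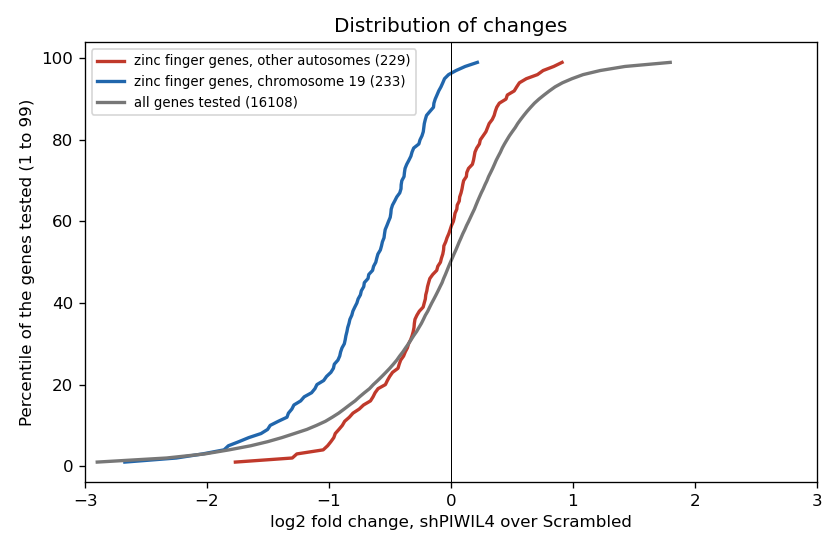
Lines give the percentiles (1 to 99) of the log2 fold change, shPIWIL4 over Scrambled, for 229 zinc finger genes on other autosomes (red), 233 on chromosome 19 (blue) and all 16108 genes tested (grey). The red line has a median of -0.09 and is steeper than the grey one, and the blue line lies to the left with a median of -0.62.

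Of 63 tested genes named ZBTB, ZSCAN, ZKSCAN or ZFP on the same autosomes, 4 rose and 26 fell, with a median of -0.17. These are 6.35% and 41.3%, where 28.7% of all genes were called higher and 29.1% lower. Without Scrambled library 2, 2 rose. Among 20 genes of the KAP1 corepressor, 3 rose and 5 fell, with a median of 0.09, and 5 rose without shPIWIL4 library 1 and 6 without shPIWIL4 library 2. In the fit of all 4 libraries the KAP1 calls are 15% higher and 25% lower, below the 28.7% and 29.1% of all genes. With the replicate numbers crossed between groups as a block, 9 of the KAP1 list rose. TRIM28 and SETDB1, the scaffold and methyltransferase of this corepressor, had log2 fold changes of 0.17 (SE 0.10) and 0.15 (SE 0.09) and were not called. RBBP4, a histone chaperone of the NuRD complex, fell by 0.73 (SE 0.08), and its paralog RBBP7 rose by 0.49 (SE 0.09). The HP1 genes CBX1 and CBX5 changed by 0.54 and -0.43. The NuRD genes MTA3 and CHD3 fell by 0.85 and 0.43, and CHD4 rose by 0.31.

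In the annotation, 119 of the 262 genes share exon positions with another gene on either strand, and the strand setting of the authors' counting is not given in the sources used here. Of the 111 tested among them, 12 rose and 42 fell, or 10.8% and 37.8%, with a median of -0.19. Of the 118 tested genes with no shared exon, 29 rose and 35 fell, or 24.6% and 29.7%, with a median of -0.04, where 28.7% of all genes were called higher and 29.1% lower. Without Scrambled library 1, 18 of these rose and 23 fell, and without Scrambled library 2, 18 rose. Genes named above without such a remark can also share exons. Among them are ZNF410 (with PTGR2, same strand), ZNF75A (with TIGD7, other strand) and ZNF518A (with BLNK, other strand). ZNF207, ZNF445, ZNF598, ZNF718, ZNF770, ZNF804A and ZNF862 also overlap other annotated genes. Whether shared exons move these values was not tested.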

How the data were processed

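RNA-seq libraries of THP-1 cells (2 shPIWIL4, 2 Scrambled) were compared. Per the submitters' processing notes, the authors used STAR, featureCounts and DESeq2 with hg19. Groups come from the sample titles, since the treatment label of the shPIWIL4 libraries also reads scrambled. Versions, annotation and counting strand were not given in the sources used here. Deposited by the authors were a raw count per gene and library, with FPKM and TPM values, and a series table of normalized signal. The deposited FPKM served only to recover gene lengths. The deposited TPM and the deposited signal (count divided by 1 size factor per library) entered no test.

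The test of the deposited counts was edgeR 4.0.16 under R 4.3.3 (filterByExpr, minimum count 10, minimum total 15; TMM; robust quasi-likelihood F test; group as the only term), with Benjamini-Hochberg adjustment over all 16108 genes tested. A call is an adjusted p under 0.05. The SE is the size of the log2 fold change over the square root of F. Both CPM and RPKM carry the TMM scaling. Under TMM scaling a direction is read against the bulk of genes, taken as unchanged. Chromosomes and biotypes came from RefSeq for GRCh38.p14, matching 257 names directly and 5 through an older symbol. Only promoter coordinates of that build are given. KRAB and finger patterns were searched in translated GENCODE transcripts. The test was also run on simulated counts with means and spreads taken from these data and few genes changed. As 57.7% of genes were called here, that run does not check the calls or the scaling in these data. Replicates of each group differed by more than sampling noise (chi-square per gene 27.9 for shPIWIL4 and 7.89 for Scrambled). No label names a batch, and any batch aligned with the 2 groups would be inseparable from the shRNA.

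The members and lists were chosen with earlier results of these data known. Named genes are PIWIL4, the 12 largest rises and 12 largest falls among called members whose higher group averages at least 1 CPM and whose groups do not overlap, the 6 highest RPKM levels, and up to 5 called genes of each list with the smallest p. Others were named after their values were seen, among them the low-level falls, cluster members and genes not called. Alternatives were other scalings, filters, DESeq2 1.42.0, a replicate block and leaving out each library.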

Additional observations from a re-analysis of the deposited data

How the results depend on the processing

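Zinc finger genes called higher and lower numbered 41 and 77, and 0 of these genes were called in the opposite direction under any alternative run. Upper-quartile factors gave 26 higher and 95 lower, and the median log2 fold change was -0.20 where all genes had -0.12. The median was -0.13 with library totals, -0.048 with no filter on low counts and -0.11 with the stricter filter. Leaving out 1 library gave 27 to 49 higher, 53 to 82 lower and a median of -0.12 to -0.066, with the lowest counts without Scrambled library 1. A fit of 3 libraries assumes that the lone library varies like the other group. Leaving out 1 library gave 1 to 4 chromosome 19 genes called higher and a difference of medians of 0.47 to 0.58. Without a filter 2 chromosome 19 genes were higher. ZNF768, not called, ranged between -0.10 and 0.031 when 1 library was left out. The replicate number as a block gave 33 higher and 67 lower, and ended the named call of ZNF281. Same-numbered libraries deviated in opposite directions over all tested genes (correlation -0.48). This does not decide whether they were paired, since differences in depth or quality between libraries can give either sign. The main fit took no pairs. With the numbers crossed, an alternative chosen after seeing the data, 54 were higher and 95 lower, and 4 chromosome 19 genes were higher. ZNF318 was called lower in that fit (-0.22). DESeq2 called 37 higher and 65 lower. With 24 members between 1 and 29 counts in all, depth limits what can be said of them.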
